A study of Mus musculus with 7 samples.

Results

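Toll-like receptors, their co-receptors and the first adaptors behind them were followed in mouse granulocytes of 2 Alox15 genotypes. The 10 genes were Tlr1, Tlr2, Tlr4, Tlr6, Tlr9, Tlr13, Ly96, Cd14, Myd88 and Irak3, taken by symbol from a table of 51789 Ensembl genes, where each symbol had 1 row. Of these, 9 passed the filter on low counts and were among the 12506 genes tested, and Tlr9 did not pass. Alox15 encodes a lipoxygenase that oxidises polyunsaturated fatty acids, and the series concerns ferroptosis of neutrophils in tumours. Granulocytes are the leukocytes that include neutrophils, eosinophils and basophils. The 2 groups were Alox15 wild type (n = 4) and Alox15 knockout (n = 3), and all 7 libraries were untreated. The sources used here do not give strain, age, sex, source tissue, sorting or which part of Alox15 was removed. The labels do not state that replicates were separate animals, so a p-value measures only how these libraries vary, and that spread may be technical.

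Toll-like receptors are membrane proteins that bind conserved parts of microbes. Tlr2 pairs with Tlr1 or Tlr6 at the cell surface to bind bacterial lipopeptides, and Tlr4 binds lipopolysaccharide together with MD-2, the product of Ly96, after CD14 has passed the ligand on. Tlr9 and Tlr13 sit in endosomes and read bacterial DNA and ribosomal RNA. These receptors signal through the adaptor MyD88 to kinases of the IRAK family and on to NF-kB, while Irak3, also called IRAK-M, restrains that signal. Neutrophils and monocytes are both known to use this pathway.

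Promoter windows were available for 7 of the 10 genes in the RefSeq table for GRCm38.p6, as 10 windows, and not for Tlr4, Ly96 and Cd14. The 250 bases before each start were searched on both strands for 3 motifs. A broad consensus of NF-kB, the factor this pathway activates, matched in 1 window, that of Tlr2, against 3.90% of all 32851 windows. It was used after a narrower form had no match in the members' windows. The purine-rich letters GAGGAA, bound by ETS factors such as PU.1 of myeloid cells, matched in 3 windows, against 23.3% of all. TTGCNNAA, for C/EBP factors, matched in 1 window of Tlr6, against 9.56%. The Tlr2 window is shown for its NF-kB letters, which overlapping matches on both strands cover. The 3 windows with GAGGAA are shown because they belong to 2 genes that were read in all libraries, Tlr1 and Tlr13, and to Tlr9, which was almost unread. The Tlr2 window is at chr3:83841768-83841858 and the Tlr1 window at chr5:64933564-64933808, both on the minus strand. Those of Tlr13 and Tlr9 are at chrX:106143025-106143203 and chr9:106222348-106222597 on the plus strand. The lines run 5′ to 3′ and stop before the first annotated exon base, and capitals mark the matches.
Tlr2: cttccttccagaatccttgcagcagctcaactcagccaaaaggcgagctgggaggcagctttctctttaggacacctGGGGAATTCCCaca
Tlr1: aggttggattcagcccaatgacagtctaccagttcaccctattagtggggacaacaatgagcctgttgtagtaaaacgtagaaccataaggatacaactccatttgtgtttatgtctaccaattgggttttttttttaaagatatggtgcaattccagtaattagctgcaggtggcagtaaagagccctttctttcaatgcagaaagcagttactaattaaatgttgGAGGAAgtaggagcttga
Tlr13: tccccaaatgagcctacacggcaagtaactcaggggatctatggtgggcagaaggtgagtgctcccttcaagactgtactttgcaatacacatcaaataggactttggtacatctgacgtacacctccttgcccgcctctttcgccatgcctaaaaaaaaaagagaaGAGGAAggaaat
Tlr9: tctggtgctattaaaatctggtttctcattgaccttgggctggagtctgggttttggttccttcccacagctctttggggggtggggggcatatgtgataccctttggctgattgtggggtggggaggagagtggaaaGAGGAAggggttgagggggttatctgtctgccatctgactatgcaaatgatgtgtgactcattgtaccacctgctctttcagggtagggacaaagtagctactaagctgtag
Counted to the RefSeq start of each window, GAGGAA began 23 bases before that of Tlr1, 83 before that of Tlr13 and 112 before that of Tlr9. The Tlr1 and Tlr13 lines stop short of that start, at the first annotated exon base, so fewer bases follow the match in them. The same letters thus stood before genes that were read and before one that was almost unread, and a match is no evidence of binding.

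Total counts were 3228292 to 5657192 per library, and values below are CPM, counts of 3′ tags relative to library size after TMM scaling. Such tags are not spread along the transcript, so no value was divided by gene length, and levels are compared between libraries and not between genes. Alox15 had 0 counts in all 4 wild-type libraries and 1 in the knockouts, so it does not check the labels. Xist was at 102 to 382 CPM in knockouts 2 and 3 and 0.896 to 6.11 CPM in the other 5 libraries. Ddx3y ran the other way, at 0.306 and 0.195 CPM in knockouts 2 and 3 and 19.3 to 119 CPM in the other 5. The descriptions of knockouts 2 and 3 share a stem that the other 5 lack. Sex-linked transcripts and that stem therefore cannot be told apart from part of the genotype contrast. All 10 mature neutrophil markers were detected in every library, but wild type 2 and knockout 3 stood apart with the lowest summed levels, 2548 and 1982 CPM, against 10974 to 26259 CPM in the other 5.

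Knockout was compared with wild type to ask whether these transcripts differ in granulocytes without Alox15. None of the 9 tested genes passed, and the wild-type and knockout libraries overlapped for 8 of them. The log2 fold changes of knockout over wild type ran from -0.43 for Irak3 to 1.00 for Tlr1, 5 above 0 and 4 below, with a median of 0.13 against 0.01 over all tested genes. By edgeR's quasi-likelihood test with Benjamini-Hochberg adjustment over all 12506 genes, 0 members were called (adjusted p = 0.99995 for each), and 0 had an unadjusted p under 0.05. Over all genes 0 were called, a background of 0%, and 154 genes, or 1.23%, had an unadjusted p under 0.05. DESeq2 and limma-voom also called 0 of the members. For 7 of the 9 genes the 2 genotype means differed by less than the SD within either genotype. For Tlr1 the difference of 7.67 CPM exceeded the wild-type SD of 5.95 CPM but not the knockout SD of 12.7 CPM, and for Ly96 that of 1.84 CPM exceeded both SDs (0.731 and 0.773 CPM).

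**Figure D1:**
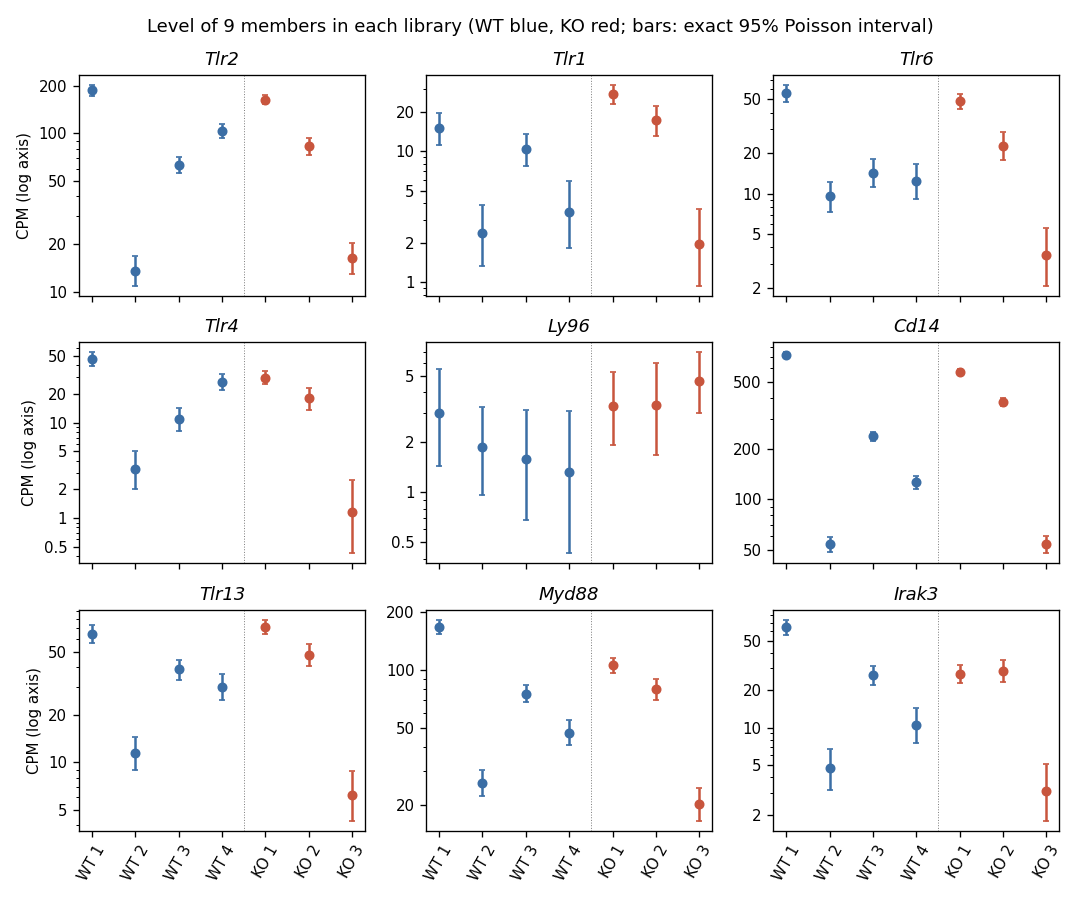
Level of each tested gene in CPM, on a log axis, in the 4 wild-type (WT) and 3 knockout (KO) libraries, with the exact 95% Poisson interval of its count. In every panel but that of Ly96, WT 2 and KO 3 are the lowest points, and the groups overlap in every panel but that of Ly96.

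Tlr2 (ENSMUSG00000027995, chromosome 3, 83836272 to 83841767, minus strand, GRCm38), the shared partner of the lipopeptide receptors, stood at 187, 13.6, 63.2 and 103 CPM in wild types 1 to 4 and at 163, 83.0 and 16.4 CPM in knockouts 1 to 3. Wild type 2 and knockout 3 were low, and their counting intervals overlapped (10.9 to 16.8 and 13.05 to 20.3 CPM). The wild-type mean was 91.7 ± 73.3 CPM (SD, n = 4) and the knockout mean 87.5 ± 73.5 CPM (SD, n = 3), with a log2 fold change of -0.06 ± 0.87 (SE).

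Tlr1 (ENSMUSG00000044827, chromosome 5, 64924679 to 64933563, minus strand), the partner for triacylated lipopeptides, stood at 14.9, 2.35, 10.3 and 3.44 CPM in wild type and at 27.2, 17.2 and 1.95 CPM in knockout. Knockouts 1 and 2 were the highest of all libraries and knockout 3 the lowest, so the knockout values enclosed those of wild type. The log2 fold change was 1.00 ± 0.87 (SE), and 0.29 without knockout 1. Tlr6 (ENSMUSG00000051498, 64952031 to 64960097 on the same strand), the partner for diacylated lipopeptides, stood at 55.6, 9.55, 14.3 and 12.4 CPM in wild type and at 48.6, 22.7 and 3.51 CPM in knockout. Wild type 1 and knockout 1 were high, and the log2 fold change was 0.13 ± 0.86 (SE), turning to -0.82 without knockout 1.

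Tlr1 and Tlr6 are neighbouring paralogs that compete for Tlr2, so their counts were also set against each other within each library. Tlr1 made up 21.2% of the 236 counts of the pair in wild type 1 (exact 95% binomial interval 16.2 to 27.0%), 19.7% of 76 in wild type 2 (11.5 to 30.5%), 41.9% of 124 in wild type 3 (33.1 to 51.1%) and 21.7% of 60 in wild type 4 (12.1 to 34.2%). In the knockouts the shares were 35.9% of 390 (31.1 to 40.9%), 43.1% of 130 (34.4 to 52.0%) and 35.7% of 28 (18.6 to 55.9%). All 3 knockouts and wild type 3 thus lay above wild types 1, 2 and 4, and the genotypes overlapped through wild type 3. That order was not beyond counting error throughout. The interval of knockout 3 held the shares of wild types 1, 2 and 4, and the intervals of knockout 1 and wild type 4 overlapped. The pair was chosen with the values known and no test was made. How reads shared by paralogs were counted is not stated in the sources used here, and the split between these 2 genes is therefore uncertain.

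**Figure D2:**
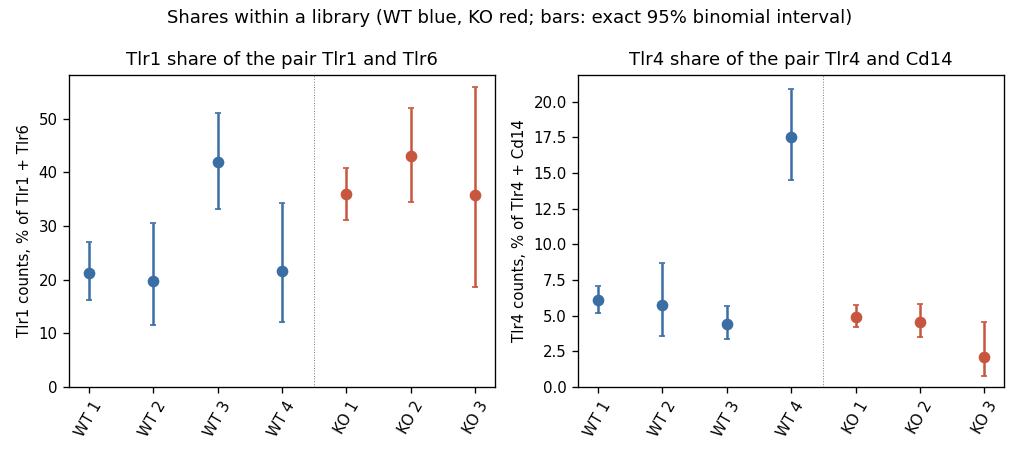
Share of Tlr1 among the counts of Tlr1 and Tlr6 (left) and of Tlr4 among those of Tlr4 and Cd14 (right), in percent, in each wild-type (WT) and knockout (KO) library, with exact 95% binomial intervals. WT 3 lies with the knockouts on the left at 41.9%, and WT 4 stands apart on the right at 17.5%.

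Tlr4 (ENSMUSG00000039005, chromosome 4, 66827584 to 66930284, plus strand), the lipopolysaccharide receptor, stood at 46.6, 3.29, 10.9 and 26.7 CPM in wild type and at 29.7, 18.1 and 1.17 CPM in knockout. The 39.9-fold distance from wild type 1 to knockout 3 was the widest among the tested members, though it rests on 6 counts in knockout 3. The log2 fold change was -0.41 ± 1.02 (SE). Cd14 (ENSMUSG00000051439), the co-receptor that hands lipopolysaccharide to Tlr4, stood at 718, 53.9, 236 and 126 CPM in wild type and at 573, 378 and 53.8 CPM in knockout. Wild type 2 and knockout 3 were equally low within counting error, and for every other neighbouring pair of libraries in the order of Cd14 levels the counting intervals were separate. The log2 fold change of Cd14 was 0.24 ± 0.92 (SE), and 1.23 without wild type 1.

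Wild type 4 set Tlr4 and Cd14 apart. Tlr4 made up 17.5% of the 576 counts of the pair there (exact 95% binomial interval 14.5 to 20.9%), against 4.42 to 6.10% in the other 3 wild-type libraries and 2.13 to 4.94% in the knockouts. Among the 7 libraries, ordered from high to low, wild type 4 took place 3 for Tlr4 and for Tlr2. It took place 5 for Cd14, Tlr1, Tlr6, Tlr13, Myd88 and Irak3, and place 7 for Ly96. The pair was chosen with the values known, so this is a description without a test.

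Ly96 (ENSMUSG00000025779, chromosome 1, 16688051 to 16709611, plus strand), which encodes the MD-2 subunit that Tlr4 needs to bind lipopolysaccharide, went its own way. It stood at 2.99, 1.88, 1.59 and 1.32 CPM in wild type and at 3.30, 3.37 and 4.67 CPM in knockout. All knockouts lay above all wild types, and the highest library was knockout 3, in which 7 of the other 8 tested members were at their lowest. Groups that do not overlap were found for 392 of all tested genes, or 3.13%. The values rest on 5 to 24 counts per library, and the counting intervals of all 6 neighbouring pairs in the order overlapped. The log2 fold change of Ly96 was 0.96 ± 0.81 (SE) with an unadjusted p of 0.265 in edgeR, and its adjusted p did not pass in any setting.

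Tlr9 (ENSMUSG00000045322, chromosome 9, 106222598 to 106226883, plus strand), the endosomal receptor for unmethylated CpG DNA, was not detected in wild type. It had 0 of 18152398 counts over the 4 libraries, so that the limit of 3 counts allows up to 0.165 CPM. The knockouts held 1 of 13826608 counts, in knockout 2, or 0.0723 CPM with an exact 95% Poisson interval of 0.00183 to 0.403 CPM. These CPM values of Tlr9 are relative to the pooled counts of a genotype, without TMM scaling. A fold change would have no meaning at these counts. Tlr13 (ENSMUSG00000033777, chromosome X, 106143204 to 106160493, plus strand), the mouse receptor for bacterial ribosomal RNA, stood at 64.8, 11.4, 38.5 and 29.9 CPM in wild type and at 71.5, 47.8 and 6.23 CPM in knockout. It was high in wild type 1 and knockout 1, whose intervals overlapped, and its log2 fold change was 0.21 ± 0.76 (SE).

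Myd88 (ENSMUSG00000032508, chromosome 9, 119335934 to 119341411, minus strand), the adaptor shared by most of these receptors, stood at 167, 26.0, 75.3 and 47.4 CPM in wild type and at 105, 79.3 and 20.3 CPM in knockout. Its 8.23-fold range over the libraries was the narrowest among the tested members after that of Ly96, which was 3.53-fold. The log2 fold change of Myd88 was -0.20 ± 0.69 (SE). Irak3 (ENSMUSG00000020227, chromosome 10, 120141648 to 120202130, minus strand), the restraining kinase-like protein, stood at 64.2, 4.70, 26.4 and 10.6 CPM in wild type and at 27.0, 28.8 and 3.12 CPM in knockout. Wild type 1 alone was high: without it the log2 fold change of -0.43 ± 0.94 (SE) became 0.46.

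**Figure D3:**
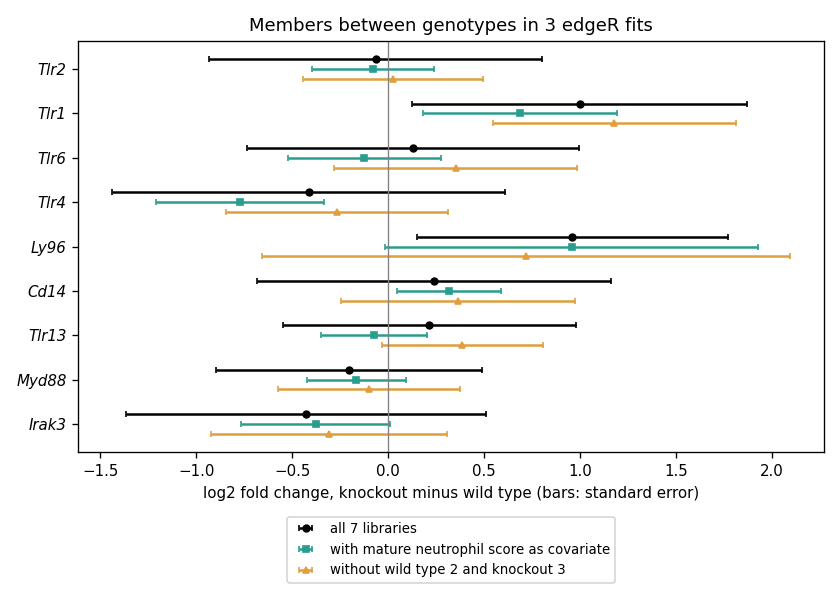
Log2 fold change of knockout over wild type with its standard error for the 9 tested members, in edgeR fits on all 7 libraries, with the mature neutrophil score as a covariate, and without wild type 2 and knockout 3. Tlr1, Ly96 and Cd14 lie above 0 in all 3 fits, and the bars of Tlr13 shrink from 0.76 to 0.27 with the covariate.

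Except for Ly96, the members broadly followed the mature neutrophil markers over the libraries, though not at every step. For 8 of the 9 tested members the lowest values were those of wild type 2 and knockout 3, an order shared by 16.1% of all tested genes. The mature neutrophil score, the mean log2 CPM of 10 markers such as Cxcr2, Mmp9 and S100a8, was 9.52, 6.30, 8.17 and 8.02 in wild types 1 to 4 and 9.27, 8.92 and 5.65 in knockouts 1 to 3. When the score was subtracted from each gene's log2 CPM, the spread over libraries became smaller for 8 of 9 members. The SD of Tlr13 went from 1.29 to 0.26, that of Cd14 from 1.54 to 0.38 and that of Tlr4 from 1.76 to 0.57, while that of Ly96 went from 0.56 to 1.61. Among all 12496 tested genes outside the score, 12.2% had a smaller SD after the same step. Their median SD went from 0.62 to 1.60, so the rise of Ly96 was near that of a typical tested gene. In these bulk libraries, fewer neutrophils and less of the transcript per neutrophil cannot be told apart.

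**Figure D4:**
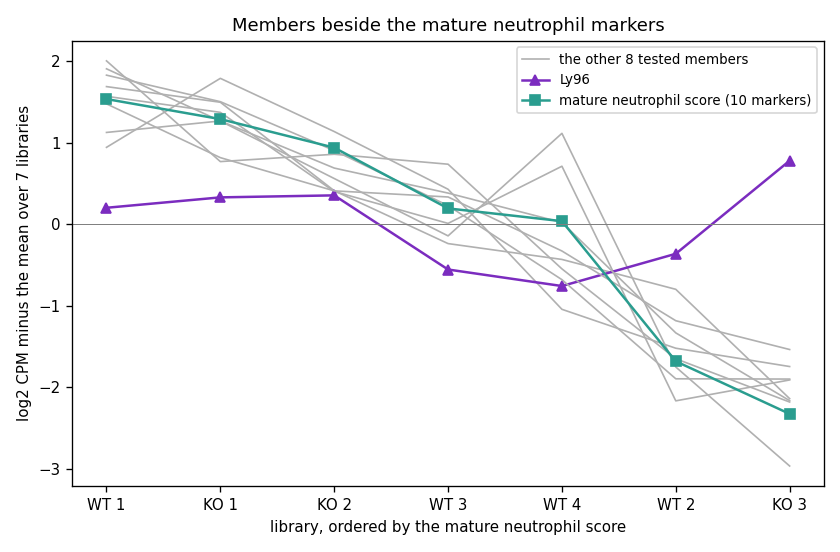
Log2 CPM minus the mean over 7 libraries, for the members (grey, and Ly96 in purple) and the mature neutrophil score (green), with libraries (WT, wild type, and KO, knockout) ordered by the score. The grey lines are lowest in WT 2 and KO 3, which have the lowest scores, but some rise between neighbours, as that of Tlr4 does from WT 3 to WT 4. Ly96 is highest in KO 3, where the score is lowest at 5.65.

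Markers of other cells also differed between libraries, in orders that differed by cell type, and their part in the members' values was not tested. Summed CPM of 10 monocyte and macrophage markers, cells that also carry these receptors, was 163 to 499 in wild type and 196 to 1257 in knockout, all 10 being detected in every library. The lowest sums were those of wild type 2 and knockout 3, as for 8 members. Knockout 1 was highest, where Tlr1 and Tlr13 also had their highest values. Wild type 1, where 6 of the tested members were highest, had a sum of 435 CPM. The 4 eosinophil markers (Epx at 0 throughout and Prg2 in all but wild type 1) were highest in wild type 1 at 17.9 CPM. They were likewise lowest in wild type 2 and knockout 3, at 1.25 and 1.17 CPM. Summed CPM of 8 T cell markers ran the other way, from 388 to 872 in wild type and 418 to 975 in knockout, highest in wild type 2 and knockout 3; Cd8a was at 0 in wild types 1 and 2 and Cd4 in wild type 1. The 5 B cell markers followed neither order. They summed to 4.18, 41.5, 63.0 and 26.7 CPM in wild types 1 to 4 and to 96.2, 40.1 and 39.9 CPM in knockouts 1 to 3, with Ms4a1, Cd79a and Cd22 at 0 in wild type 1 and Ms4a1 at 0 in wild type 4. The 7 dendritic cell markers summed to 40.8 to 73.3 CPM in wild type, lowest in wild type 4. In knockout they summed to 17.3 to 86.3 CPM, lowest in knockout 3. Clec9a was at 0 in all libraries, and Xcr1, Siglech and Zbtb46 were each at 0 in some. The 5 basophil and mast cell markers were highest in wild type 2 at 25.1 CPM and lowest in knockout 3 at 6.04 CPM. Mcpt8, Fcer1a and Ms4a2 were at 0 in all libraries and Kit in wild type 4.

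With the mature neutrophil score as a covariate in the edgeR fit, the standard errors of 8 of the 9 members fell, that of Ly96 excepted, and 0 passed (adjusted p = 0.999997 for each, against 0.893 to 1 over the other settings). Tlr4 then had -0.77 ± 0.44 (SE), Tlr1 0.69 ± 0.50, Cd14 0.32 ± 0.27, Irak3 -0.38 ± 0.39 and Myd88 -0.17 ± 0.26. Without wild type 2 and knockout 3, Tlr1 had 1.18 ± 0.63 and Tlr4 -0.27 ± 0.58, and again 0 members passed. For Tlr1 the direction was the same in all 17 other settings (0.29 to 1.82), without a call in any. For Ly96 it was the same in all 16 in which it was tested (0.72 to 1.23), again without a call. The 1.82 of Tlr1 came with the description stem as a covariate, where knockout 1 alone was compared with wild type.

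The rest of the pathway was read from 6 lists of 64 genes, of which 58 were tested: 27 had a log2 fold change above 0 and 31 below, 0 were called in either direction (edgeR), and 0 had an unadjusted p under 0.05. The median was -0.03, against 0.01 over all tested genes. Of the other Toll-like receptors, Tlr7, an endosomal sensor of single-stranded RNA encoded on the X chromosome, stood at 7.77, 0.626, 3.38 and 0.265 CPM in wild type and at 14.0, 11.0 and 5.45 CPM in knockout. Knockout 3, low in most members, was the lowest knockout for Tlr7 but lay above wild types 2, 3 and 4. Wild type 1 lay inside the knockout range. The log2 fold change of Tlr7 was 1.77 ± 0.98 (SE) on 1 to 72 counts per library. Tlr5, the flagellin receptor, was the other tested receptor, at 0 to 10.2 CPM in wild type and 0 to 8.36 CPM in knockout, with 0 counts in wild type 2 and knockout 3. Tlr3, Tlr8, Tlr11 and Tlr12 did not pass the filter on low counts, with at most 11 counts in any library.

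Among folding, trafficking and accessory factors, 4 of 9 tested genes had a log2 fold change above 0 and 5 below (median -0.16). Unc93b1, which carries endosomal Toll-like receptors out of the endoplasmic reticulum, had a wild-type mean of 166 ± 57.8 CPM (SD, n = 4) and a knockout mean of 136 ± 84.8 CPM (SD, n = 3). Slc15a4, an endolysosomal transporter needed for endosomal receptor signalling, was the steadier of the 2 at 32.4 ± 8.70 and 37.5 ± 13.5 CPM. Lbp, the lipopolysaccharide-binding protein, differed by 1.29 ± 1.23 (SE) on the log2 scale and Ly86, the partner of Cd180, by -1.36 ± 1.51 (SE), both on 0 to 33 counts per library.

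Among 18 tested adaptors, kinases and ligases, 8 had a log2 fold change above 0 and 10 below (median -0.03). Ticam1, the adaptor TRIF of the branch that does not use MyD88, stood at 4.48, 11.7, 5.16 and 8.21 CPM in wild type and at 2.72, 4.90 and 2.73 CPM in knockout. It was highest in wild type 2, a library where most members were low, and the groups overlapped through wild type 1 and knockout 2. Irak2, the kinase that sustains the signal, stood at 450, 14.7, 60.8 and 206 CPM in wild type and at 112, 114 and 37.4 CPM in knockout, and its wild-type libraries enclosed all knockouts. The log2 fold changes were -1.11 ± 0.65 (SE) for Ticam1 and -1.06 ± 0.95 (SE) for Irak2. Ikbkb, a catalytic subunit of the kinase that frees NF-kB, had 0.34 ± 0.33 and Traf3, a ubiquitin ligase adaptor, 0.30 ± 0.32. Sarm1 did not pass the filter on low counts.

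Of the 8 transcription factors, 5 had a log2 fold change above 0 and 3 below (median 0.09, range -0.34 to 0.28). Nfkb1, Nfkb2, Relb and Rela, subunits of NF-kB, had values of 0.28 ± 0.37, -0.34 ± 0.59, 0.24 ± 0.54 and 0.14 ± 0.45 (SE). Of 10 genes that restrain the pathway, 5 lay above 0 and 5 below (median 0.02). The values were -0.76 ± 0.56 (SE) for Socs1, a cytokine signalling inhibitor, -0.34 ± 0.30 for the deubiquitinase Cyld, -0.43 ± 0.43 for Tollip and 0.81 ± 1.02 for the phosphatase Dusp1. Dusp1 lay between 610 and 4278 CPM in wild type, but reached from 177 CPM in knockout 3 to 7543 CPM in knockout 1, so the knockouts enclosed wild type.

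Early response targets, genes that Toll-like receptor signalling is known to induce, had 3 of 11 tested members above 0 and 8 below (median -0.15), and Il6 did not pass the filter. Il1a, interleukin 1 alpha, had a wild-type mean of 9.29 ± 9.40 CPM (SD, n = 4) and a knockout mean of 5.42 ± 1.56 CPM (SD, n = 3). Icam1, an adhesion molecule, stood at 103 ± 103 and 65.9 ± 57.0 CPM. Il1b, interleukin 1 beta, stood at 4907 ± 4269 and 4218 ± 3173 CPM, and the chemokine gene Ccl3 at 568 ± 473 and 498 ± 394 CPM. Of these 11 targets, 9 had wild type 2 and knockout 3 as their 2 lowest libraries, against 16.1% of all tested genes. The count was 8 of 9 for the members, 1 of 2 for the other Toll-like receptors, 3 of 9 for folding, trafficking and accessory factors, 5 of 18 for adaptors, kinases and ligases, 5 of 8 for transcription factors and 5 of 10 for genes that restrain the pathway.

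**Figure D5:**
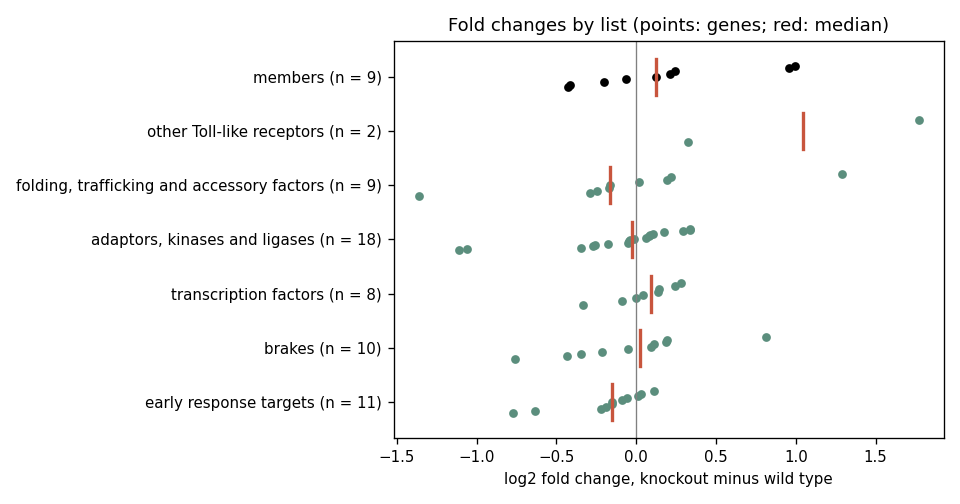
Log2 fold change of knockout over wild type for each tested member and each tested gene of 6 lists of the pathway, with the median in red. Points lie on both sides of 0 in every list but the other Toll-like receptors (n = 2), and the medians of the 3 largest of the 6 lists are -0.03, -0.15 and 0.02.

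The genes whose pattern over the 7 libraries was most like that of the members were found by the root mean square difference between a gene's centred log2 CPM and the mean of the members' centred log2 CPM, among 8323 named genes whose log2 CPM averaged 3 or more. They were Sbno2, a transcriptional co-regulator (difference 0.12), Ncf4, the p40 subunit of the phagocyte NADPH oxidase (0.13), Igfbp6, an insulin-like growth factor binding protein (0.14), Wdfy4 (0.16) and the lipid transporter Abca7 (0.17). Sbno2 stood at 884, 137, 378 and 317 CPM in wild type and at 657, 581 and 108 CPM in knockout, the same order of libraries as for Tlr6, Cd14 and Myd88. Of the members themselves, Myd88 and Tlr13 lay closest to that mean (0.22 and 0.24), Tlr4 was at 0.73 and Ly96 at 1.23.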

How the data were processed

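The 7 libraries were made with a QuantSeq kit, which reads 3′ ends of polyA RNA, from column-purified, DNase-treated RNA, per the labels' protocols. The authors deposited whole-number counts per Ensembl gene. RSEM 1.2.3, DESeq2 and mm10 are named, with no role for each, per the submitters' processing notes, so the counts may be rounded RSEM estimates. The sources used here do not state the annotation release or strand setting. No molecular identifiers are named, so intervals and limits cover counting error only.

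Of 51789 genes, 51596 matched a symbol. Coordinates are from GENCODE M21 (GRCm38, the build also called mm10). Counts were tested with edgeR 4.0.16 in R 4.3.3: filterByExpr by group, TMM factors, a robust quasi-likelihood test whose p-values were adjusted by Benjamini-Hochberg over all 12506 tested genes, a gene being called below an adjusted p of 0.05. Log2 CPM has a prior count of 2. Standard errors derive from the F statistic. The fit was tested on simulated data, where it missed most of the smaller changes, so a gene that was not called is not shown to be unchanged. Alternatives were DESeq2 1.42.0, limma-voom 3.58.1 with quality weights, upper-quartile and RLE factors, 2 other filters, 3 covariates or blocks, and leaving out libraries. Text names the members, up to 4 genes of each pathway list with the smallest unadjusted p, and the 5 genes most like the members; untested list genes and the gene DESeq2 called are named outside that rule. A narrower NF-kB motif tried first matched in 0 of the members' windows. Members and lists were chosen with earlier results of these data known. One further B cell marker is not reported here.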

Additional observations from a re-analysis of the deposited data

Results flagged for a closer look

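Tlr6 in wild type 1, at 55.6 CPM, stood far above the other 3 wild-type libraries, which lay between 9.55 and 14.3 CPM: the gap to the next library was 0.897 of the group's whole range, above Dixon's 95% critical value for 4 samples. On the log2 CPM scale, a comparison added after seeing the data, the gap was 0.774 of the range, below that critical value, so Tlr6 stood out on the CPM scale only. The same comparison was made for 9 genes in the wild-type group and this was the 1 flagged, where chance flags about 1 in 20 groups. Wild type 1 was also the library with the highest mature neutrophil score (9.52), and knockout 1 reached 48.6 CPM for Tlr6. The part of the neutrophil share in this value was not tested.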

How the results depend on the processing

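No member was called in any of the 17 other settings, and no setting called any gene except DESeq2, which called 1, Impdh2-ps, named after its value was seen; the cause was not tested. With unadjusted p under 0.05, DESeq2 had 213 genes and limma-voom 524. The median log2 fold change of the members stayed within the spread between libraries but its sign did not hold. It ran from -0.67 without knockout 1 to 0.83 with the description stem as a covariate. With that covariate, with limma-voom, without wild type 1 and without knockout 3, 9 of 9 members lay above 0. Only knockouts 2 and 3 carry their stem, so the stem covariate left knockout 1 alone to be compared with wild type. Leaving out 1 library at a time gave ranges of -0.89 to 0.51 for Tlr2, -1.20 to 0.22 for Tlr4, -0.82 to 0.99 for Tlr6, -0.43 to 0.68 for Tlr13, -0.39 to 1.23 for Cd14, -0.67 to 0.43 for Myd88 and -0.81 to 0.46 for Irak3. The sign also turned with the description stem as a covariate for Tlr2 (0.83), Tlr4 (0.45), Myd88 (0.42) and Irak3 (0.037), with limma-voom for Tlr2 (0.54), Tlr4 (0.38), Myd88 (0.32) and Irak3 (0.43), with the mature neutrophil score for Tlr6 (-0.12) and Tlr13 (-0.074), and without wild type 2 and knockout 3 for Tlr2 (0.025). With the replicate block it turned for Tlr2 (0.085), Tlr6 (-0.28) and Tlr13 (-0.066), and 0 genes were called, as without the block. Replicate number 4 exists only in wild type, so with the block wild type 4 did not enter the genotype difference. Tlr6 also turned when wild type 4 was left out (-0.11). The replicate numbers did not pair the libraries: deviations from the group means correlated at 0.35, -0.22 and -0.18 for numbers 1, 2 and 3, and only library pair 1 correlated best with its own number. The causes of these turns were not tested. Ly96 was not tested at a filter of 5 CPM in 3 libraries. Ly96 rests on 5 to 24 counts per library, and differences between libraries next to each other in its order were not detectable at this depth.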

Other observations

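Further pairs of members were read within libraries. Irak3 made up 27.8% of the counts of Irak3 and Myd88 in wild type 1, 26.0% in wild type 3 and 26.6% in knockout 2, against 20.4% in knockout 1, 18.3% in wild type 4, 15.3% in wild type 2 and 13.3% in knockout 3. The exact 95% binomial intervals of wild type 1 (24.7 to 31.1%) and knockout 3 (7.82 to 20.7%) were separate, and both genotypes held high and low shares. Tlr6 made up 41.2% of the counts of Tlr6 and Tlr2 in wild type 2 (33.2 to 49.6%) and 10.8% in wild type 4 (8.03 to 14.1%), while the other 5 libraries lay between 17.6 and 23.0%. Tlr13 made up 45.6% of the counts of Tlr13 and Tlr2 in wild type 2 (37.7 to 53.7%) and 22.5% in wild type 4 (18.9 to 26.4%). Wild type 2 and knockout 3, the 2 libraries lowest in Tlr2, thus differed in these shares, since knockout 3 had 17.6% for Tlr6 (10.8 to 26.4%) and 27.6% for Tlr13 (19.7 to 36.7%).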
